A study of Rattus norvegicus with 13 samples.

Results

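The Zic genes encode a family of zinc finger transcription factors, and 4 of them, *Zic1*, *Zic2*, *Zic4* and *Zic5*, were examined in the ventricular zone (VZ) of newborn rats. Members were chosen by name, as the rows called *Zic1*, *Zic2*, *Zic4* and *Zic5* among the 14716 rows of the deposited table, with the row of highest mean over the 13 pups to be used where a name had several. Each of the 4 names had 1 row, so the mean level decided nothing. The rows are Ensembl transcripts ENSRNOT00000019860 (*Zic1*), ENSRNOT00000089455 (*Zic2*), ENSRNOT00000019938 (*Zic4*) and ENSRNOT00000067577 (*Zic5*), although the methods name a RefSeq annotation for counting, so which transcript models each row counts is not settled here. The family itself was proposed with earlier results of these data known, so its values are given as a description and its p-values are not independent evidence.

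The pups were male Long Evans rats on postnatal day 2 (PN2), 1 per litter. The 7 control pups came from dams given deionized water only. The 6 PTU exposed pups came from dams given 3 ppm propylthiouracil (PTU), an inhibitor of thyroid hormone synthesis, in the drinking water. This exposure ran from early pregnancy until after birth. The study describes the groups as euthyroid and hypothyroid, from hormones measured in other pups of the cohort. The posterior ventricular epithelium was cut from brain sections by laser capture, and each pup gave 1 library. The methods state that RNA of these narrow captures was partly degraded.

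Zic proteins bind DNA through C2H2 zinc fingers closely related to those of the GLI proteins, the transcription factors at the end of the hedgehog pathway. In the developing brain they are active mainly in dorsal and midline tissue, including the roof of the neural tube, the medial telencephalon, the cerebellum and the meninges. Loss of *ZIC2* in humans is a cause of holoprosencephaly, a failure of the forebrain to divide, and deletions that include *ZIC1* and *ZIC4* are linked to Dandy-Walker malformation of the cerebellum.

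In RefSeq, the genes lie as neighbouring pairs, *Zic1* with *Zic4* on chromosome 8 and *Zic2* with *Zic5* on chromosome 15, with 1 further annotated locus between the latter. The annotated intervals of *Zic1* and *Zic4* overlap. The 250 bases before the annotated start of *Zic5*, *Zic2* and *Zic4*, the 3 members with an entry in the RefSeq promoter table used here (build GRCr8), are printed because *Zic5* and *Zic2* had the lowest values relative to controls and *Zic4* had a mean close to that of controls. They run 5′ to 3′ on the strand of each gene, in the order chr15:105973670-105973919 (minus strand), chr15:105983092-105983341 (plus strand) and chr8:100795852-100796101 (plus strand), with GC boxes (GGGCGG on either strand) in capitals.
Zic5: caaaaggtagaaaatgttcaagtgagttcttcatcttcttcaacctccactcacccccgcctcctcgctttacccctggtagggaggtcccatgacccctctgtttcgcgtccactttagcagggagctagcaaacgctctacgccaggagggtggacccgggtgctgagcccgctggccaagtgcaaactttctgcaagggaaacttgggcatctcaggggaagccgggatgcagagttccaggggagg
Zic2: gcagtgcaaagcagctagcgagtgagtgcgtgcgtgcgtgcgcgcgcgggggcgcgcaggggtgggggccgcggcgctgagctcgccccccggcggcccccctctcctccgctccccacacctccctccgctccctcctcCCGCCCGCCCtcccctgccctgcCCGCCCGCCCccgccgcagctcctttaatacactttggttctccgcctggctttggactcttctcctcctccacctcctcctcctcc
Zic4: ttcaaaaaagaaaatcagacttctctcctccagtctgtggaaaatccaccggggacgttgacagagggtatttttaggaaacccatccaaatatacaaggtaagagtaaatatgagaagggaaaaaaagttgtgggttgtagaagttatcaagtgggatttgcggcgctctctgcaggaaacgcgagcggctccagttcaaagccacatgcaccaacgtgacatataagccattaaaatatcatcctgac

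The 3 windows differ in base composition. The *Zic2* window has 73.6% G and C, the *Zic5* window 57.2% and the *Zic4* window 43.2%, with 25, 9 and 8 CpG dinucleotides. The GC box occurs 4 times in the *Zic2* window, as overlapping pairs on the minus strand, and in neither of the others, while 30.5% of the 33469 windows of the same length hold it. A nuclear receptor half-site (AGGTCA), a core of the GLI motif (GACCACCC) and a ZIC motif core (CAGCAGG), each searched on both strands, occur in none of the 3 windows, and in 14.1%, 0.765% and 7.67% of all windows. These letters are therefore not in these windows, which says nothing about binding elsewhere.

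*Zic5* had the largest difference of the 4 transcripts. The control pups had 526, 599, 428, 506, 441, 490 and 528 normalized counts (pups 1 to 7), and the PTU exposed pups 354, 399, 282, 283, 306 and 216 (pups 1 to 6); a normalized count is the authors' estimated read count divided by a size factor of the library. Every PTU exposed pup was below every control pup, with the highest PTU pup at 399 and the lowest control at 428. The means were 503 ± 57.9 (SD, n = 7) and 307 ± 63.6 (SD, n = 6). On the log2(normalized count + 1) scale, the difference between PTU exposed and control pups was -0.73 (standard error 0.14, 95% interval -1.02 to -0.43), that is 0.603 of the control level. In limma, a linear model with a shared estimate of the spread fitted to all 14606 rows with a mean of at least 10, the adjusted p was 0.122, which missed the threshold of 0.05. It was 0.0252 without PTU pup 2 and 0.0381 when pups were weighted by quality, settings that called 179 and 40 rows in all against 0 in the main comparison, but 0.261 without control pup 3, 0.25 without PTU pup 6 and 0.416 with the same total per library, where the log2 difference was -0.53. Regrouping the pups in every possible way (two-sided exact permutation test) gave p = 0.000583 before adjustment, the smallest that 7 against 6 pups allow.

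Of the 4 members, 0 had an adjusted p of at most 0.05 in limma, as had 0 of all rows (0%), whereas 2383 rows (16.3%) had an unadjusted p under 0.05. The study's own count model, not run here, did call genes at this threshold. *Zic5* and *Zic2* were lower with an unadjusted p under 0.05, against 8.2% of all rows that were lower and 8.11% that were higher at this p. Groups without overlap were found for 1 of 4 members and in 0.596% of all rows. Since the family was proposed with such results known, nothing is read from these counts about the family.

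*Zic2*, the neighbour of *Zic5*, had a smaller difference and groups that overlapped. Control pups 1 to 7 had 1056, 854, 1002, 989, 1133, 707 and 1158 normalized counts, and PTU pups 1 to 6 had 972, 606, 697, 980, 649 and 631. The PTU exposed pups formed a low group of 4, all below the lowest control, and a pair, pups 1 and 4, that lay within the control range. The means were 986 ± 159 (SD, n = 7) and 756 ± 173 (SD, n = 6), with all 6 PTU exposed pups below the control mean. The log2 difference was -0.39 (standard error 0.14, 95% interval -0.70 to -0.09, adjusted p = 0.202 in limma), and -0.19 with the same total per library (adjusted p = 0.696). The two-sided exact permutation test of this row alone gave p = 0.0297.

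*Zic1* had nearly equal means, and its PTU exposed pups were spread on both sides of the controls. Control pups 1 to 7 had 624, 516, 515, 552, 407, 423 and 622 normalized counts, and PTU pups 1 to 6 had 927, 279, 462, 712, 426 and 342. Pups 1 and 4 of the PTU group were above the highest control, and pups 2 and 6 below the lowest. The means were 523 ± 86.1 (SD, n = 7) and 525 ± 247 (SD, n = 6), and the log2 difference was -0.10 (standard error 0.23, adjusted p = 0.854 in limma). Its 95% interval, -0.58 to 0.37, leaves room for a change in either direction. Its sign was not stable, at 0.055 without PTU pup 2. When every library was scaled to the same total, the log2 difference was 0.10. That scaling moved the median row by 0.20, and relative to this shift the difference was -0.11.

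*Zic4* was a low transcript that varied widely in both groups. The lowest, median and highest control pups had 41.3, 71.9 and 112 normalized counts, and the corresponding PTU values were 28.0, 82.9 and 149, with means of 78.9 ± 30.4 (SD, n = 7) and 84.0 ± 44.3 (SD, n = 6). The PTU group again had pups 4 and 1 highest, at 149 and 115, and pups 6 and 2 lowest, at 45.9 and 28.0. The log2 difference was -0.01 (standard error 0.37, 95% interval -0.78 to 0.77, adjusted p = 0.994 in limma). It was 0.26 without PTU pup 2, and a change of *Zic4* was not detectable at this spread. With the same total per library the log2 difference was 0.19. Relative to the median row, which that scaling moved by 0.20, it was -0.02.

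The number of reads behind each value was estimated from the step between low values of a library. *Zic4* rested on an estimated 29.0 to 154 reads per pup, *Zic5* on 268 to 526, *Zic1* on 289 to 1025 and *Zic2* on 628 to 1220. Counting error alone would give *Zic4* a coefficient of variation of 12.4% in controls and 12.1% in PTU exposed pups, and the observed ones were 38.5% and 52.8%. For *Zic1*, the observed coefficients were 16.5% and 47.0%, against 4.58% and 4.52% from counting. *Zic5* had the smallest observed spread of the 4, 11.5% in controls and 20.7% after PTU exposure. The levels of different members were not ranked against each other, since transcript lengths of the authors' annotation were not used here. Members have similar zinc finger coding sequences, and *Zic1* and *Zic4* overlap in RefSeq, so the counting model could divide reads among them. Its part in the results was not tested. In bulk tissue, fewer cells that express a gene and less of its RNA per cell cannot be told apart.

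**Figure D1:**
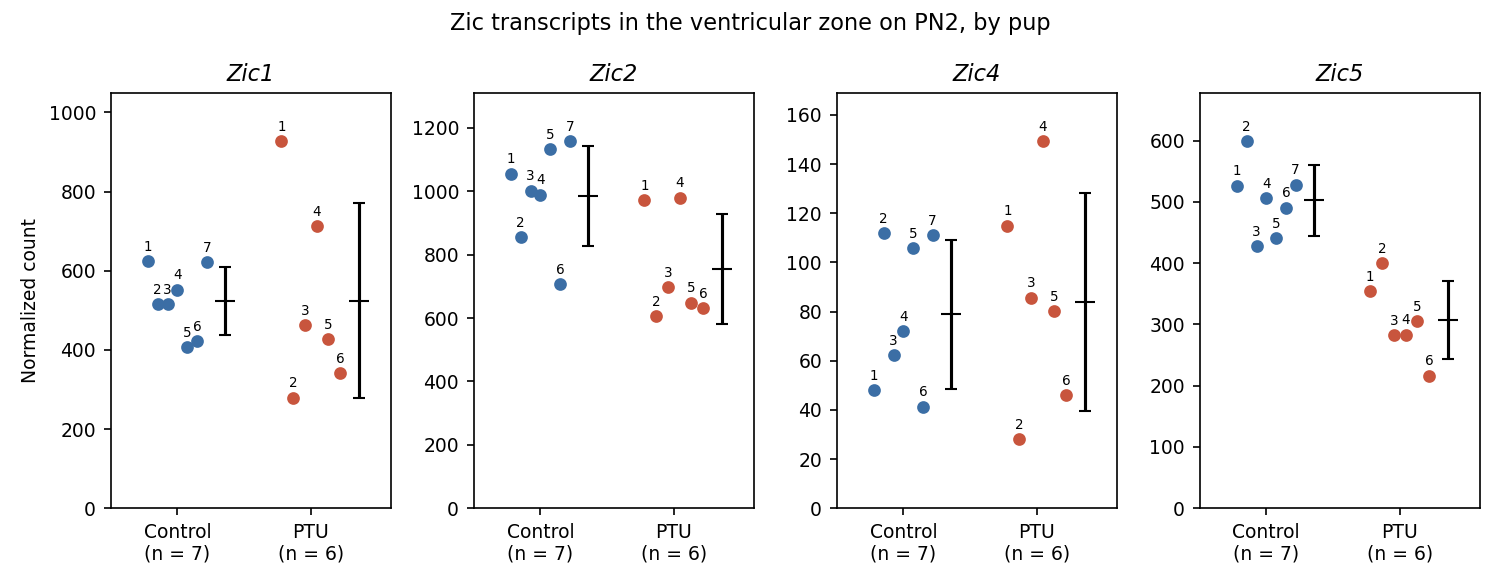
Normalized counts (y axis, from 0) of the 4 Zic transcripts in each pup, control in blue and PTU exposed in red, with replicate numbers beside the points and the mean ± SD in black. The *Zic5* groups are separate, with the highest PTU exposed pup at 399 and the lowest control at 428, whereas the *Zic1* values of PTU pups extend from 279 to 927, beyond the controls at both ends.

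Whether members differed in their response was tested on the ratio of 2 members within each pup, which does not depend on how a library was scaled. All 6 pairs were compared with exact permutation tests (two-sided), with Benjamini-Hochberg adjustment over these 6. The log2 ratio of *Zic1* over *Zic5* averaged 0.047 ± 0.22 (SD, n = 7) in the control group. The PTU group averaged 0.67 ± 0.69 (SD, n = 6), higher by 0.63 (exact permutation p = 0.0443, adjusted p = 0.195). It was above the highest control in 5 of 6 PTU exposed pups and below the lowest control in pup 2. *Zic4* over *Zic5* differed by 0.72 (exact permutation p = 0.123, adjusted p = 0.195), *Zic2* over *Zic5* by 0.33 (p = 0.13, adjusted p = 0.195) and *Zic1* over *Zic2* by 0.29 (p = 0.126, adjusted p = 0.195). *Zic2* over *Zic4* and *Zic1* over *Zic4* differed by -0.39 and -0.09 (adjusted p = 0.289 and 0.758 in the exact test). The members were therefore not shown to differ in their response over all 13 pups.

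PTU pup 2 decided these comparisons. Without it, 4 of the 6 ratios passed the threshold in the exact permutation test, with adjusted p-values of 0.00758 for *Zic1* over *Zic5* (difference 0.87), 0.0189 for *Zic4* over *Zic5* (1.07), and 0.0379 for both *Zic2* over *Zic5* (0.47) and *Zic1* over *Zic2* (0.39). In that pup *Zic5* was the highest of its group, at 399 normalized counts, and *Zic1*, *Zic2* and *Zic4* were the lowest of theirs. The pup was singled out by this outcome after each pup had been left out in turn, so these p-values are a description. Leaving it out also raised the rows called in limma from 0 to 179.

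**Figure D2:**
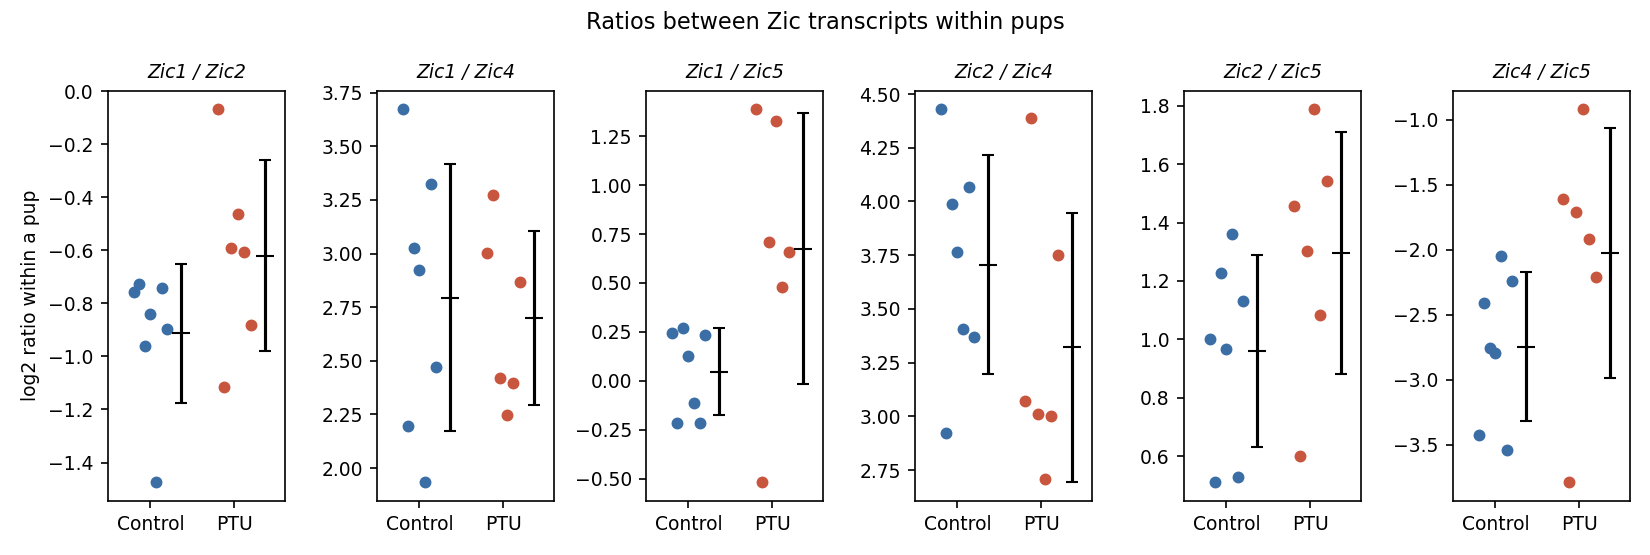
Log2 ratio (y axis) of each pair of Zic transcripts within a pup, control in blue and PTU exposed in red, with the mean ± SD of each group in black. In the ratios over *Zic5*, 5 of 6 PTU exposed pups lie above the control mean, and PTU pup 2 is the lowest of its group. The y axes differ between panels.

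Among pups of the same group, *Zic1*, *Zic2* and *Zic4* were correlated for 2 of their 3 pairs, and no correlation with *Zic5* passed the threshold. Correlations were computed on log2 values centred within groups over the 13 pups, with 100000 permutations within groups and adjustment over 6 pairs. *Zic1* and *Zic2* had a Pearson r of 0.78 (permutation p = 0.00536, adjusted p = 0.0322) and a Spearman rho of 0.77 (permutation p = 0.00841, adjusted p = 0.0252). *Zic2* and *Zic4*, which lie on different chromosomes, had r = 0.71 (permutation p = 0.0142, adjusted p = 0.0426) and rho = 0.76 (permutation p = 0.00818, adjusted p = 0.0252). The neighbours *Zic1* and *Zic4* had r = 0.68 (permutation p = 0.0319, adjusted p = 0.0638) and rho = 0.66 (adjusted p = 0.0642 by permutation), which missed the threshold.

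With the 2 pups farthest from the median of the first member left out, r was 0.69 for *Zic1* and *Zic2*, 0.57 for *Zic2* and *Zic4*, and 0.50 for *Zic1* and *Zic4*. It was 0.49 for *Zic1* and *Zic5*, 0.03 for *Zic2* and *Zic5* and 0.48 for *Zic4* and *Zic5*, so 2 of the 3 pairs with *Zic5* then had an r close to that of *Zic1* and *Zic4*. Within the PTU exposed pups alone the 3 values of r were 0.95, 0.85 and 0.90, and within the controls 0.44, 0.50 and 0.06, a difference that was not tested. For *Zic1* and *Zic5* it was 0.47 in the controls and 0.09 in the PTU group. For *Zic5* with *Zic1*, *Zic2* and *Zic4*, r was 0.16, -0.01 and -0.03 (permutation, adjusted p = 0.985 for each), and rho was 0.27, -0.02 and 0.13 (permutation, adjusted p = 0.618, 0.967 and 0.85). With every library scaled to the same total, r of the neighbours *Zic2* and *Zic5* was 0.62 (permutation, adjusted p = 0.0532), and that of *Zic1* and *Zic5* was 0.57 (permutation, adjusted p = 0.0709).

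**Figure D3:**
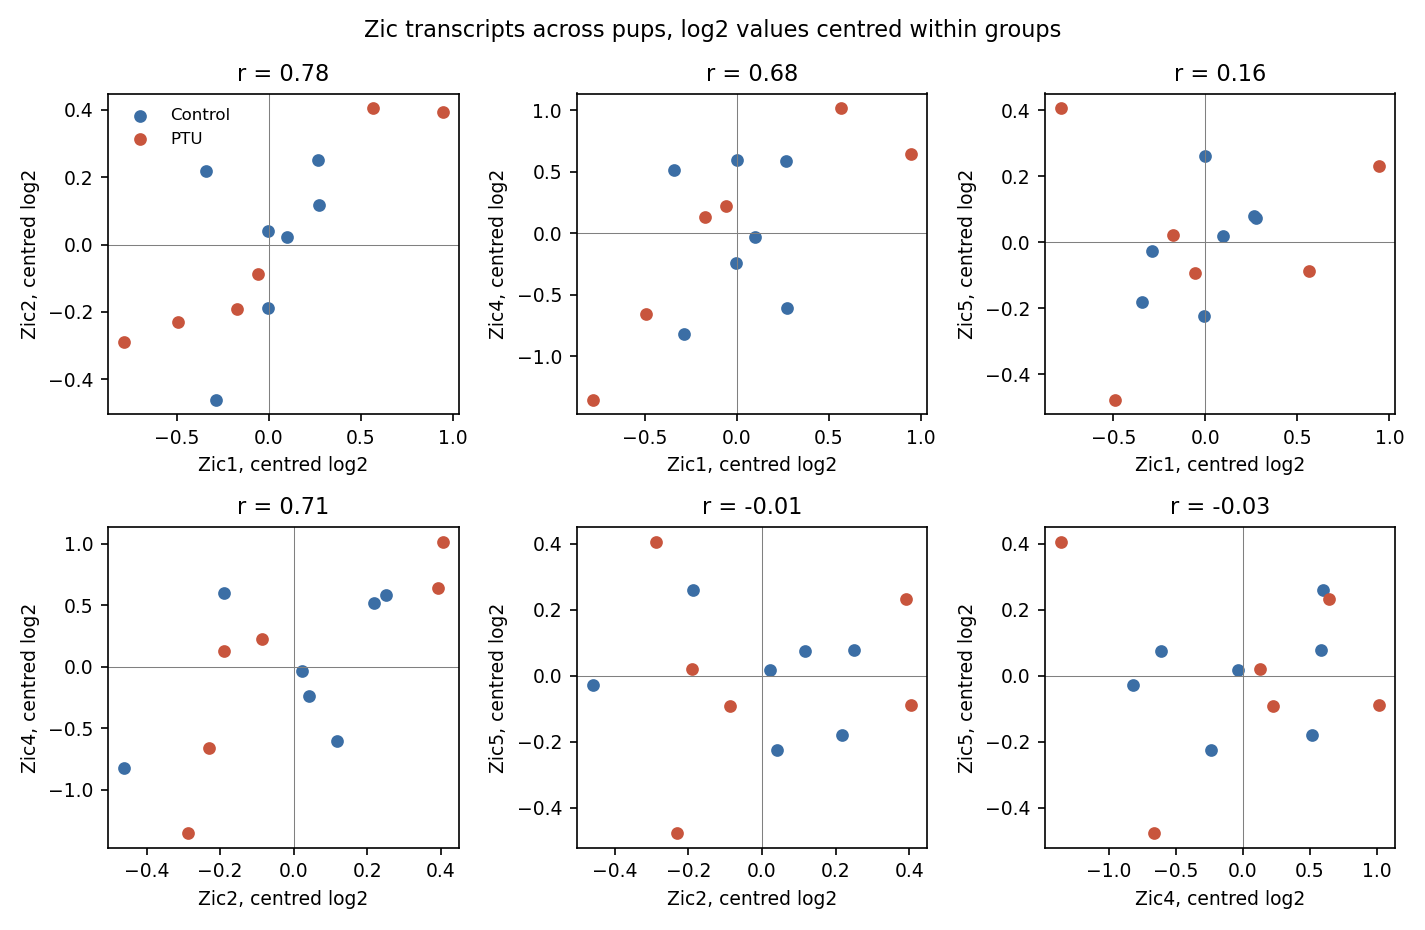
Log2 normalized counts of each pair of Zic transcripts after subtracting the group mean, 1 point per pup, control in blue and PTU exposed in red, with Pearson r over the 13 pups above each panel. Points of *Zic1*, *Zic2* and *Zic4* have r from 0.68 to 0.78, and those with *Zic5* have r from -0.03 to 0.16.

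The transcripts whose variation across the 13 pups was most like that of each member were sought among 11083 named rows with a mean of at least 100, on the same centred scale, and are given without a test. For *Zic2* they were *Plvap*, a protein of fenestrated endothelium (r = 0.94), *Galnt7* (0.91), the basement membrane collagen *Col18a1* (0.89), the growth factor *Pdgfa* (0.89) and the fibrillar collagen *Col3a1* (0.88), which is also on the meningeal fibroblast list used here. For *Zic4* they were *Rbm47*, *Slc3a2*, *Mdh1*, *Aifm3* and *Tc2n*, with r from 0.92 to 0.94. For *Zic1* they were *Ralgapb*, *Nebl*, *Ybx3* and *Arhgef28* (r from 0.89 to 0.92), and for *Zic5* the alarmin *Il33*, *Thsd1*, the bicarbonate cotransporter *Slc4a4*, *Spata6* and *Pdia6* (r from 0.84 to 0.88). No gene was on more than 1 of the 4 lists.

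Markers of neighbouring tissue were measured in these captures. All 10 radial glia markers of the VZ were present, with means over all pups from 202 to 22517 normalized counts, among them *Sox2* at 7107 ± 1050 (SD, n = 7) and 6701 ± 969 (SD, n = 6) in control and PTU exposed pups. The defining choroid plexus transcript *Ttr*, a carrier of thyroid hormone, had 91587 ± 25254 and 51490 ± 22179 normalized counts (SD, n = 7 and 6), so transcripts typical of choroid plexus were in every library, although the captures were cut along the pseudostratified epithelium and choroid plexus cells are stated not to have been part of the sequencing. The summed level of 12 choroid plexus markers ranged from 52979 to 148499 in controls and from 24699 to 106813 in PTU exposed pups. By the sign of the log2 difference, which defines lower and higher for all lists here, all 12 were lower in the PTU exposed group, 8 of them with an unadjusted p under 0.05 (8.2% of all rows) and none past the threshold in limma. Of 12 meningeal fibroblast markers 8 had a row, with 6 lower and 2 higher by that sign (the arithmetic means of *Col1a1* and *Col3a1*, at log2 differences of -0.04 and -0.02, were higher), 0 of them with an unadjusted p under 0.05 in limma. Their sum was 3296 to 13687 in controls and 2428 to 10975 in the PTU group, and *Dcn*, *Lum*, *Foxd1* and *Ogn* have no row.

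*Zic1*, *Zic2* and *Zic4* were highest in the PTU exposed pups with the highest choroid plexus and meningeal sums. PTU pups 1 and 4 had choroid plexus sums of 79900 and 106813 and meningeal sums of 10975 and 10863, whereas the other PTU exposed pups reached at most 64793 and 5945. At the low end they parted. The lowest sums, 24699 and 2428, were in PTU pup 6, whereas these members were lowest in pup 2, at sums of 54438 and 4293. *Ttr* and *Igf2* were the most abundant genes of these lists (means 73080 and 4948 over all pups), so each sum mostly follows 1 gene. Among controls, *Zic2* was lowest in pup 6, which also had the lowest sums of both lists, at 52979 and 3296. *Zic4* was also lowest in that pup, whereas *Zic1* was lowest in control pup 5, at 407 normalized counts, beside sums of 123937 and 11615, each the next to highest of the controls. Control pup 2 had the highest choroid plexus sum, 148499, with *Zic2* at 854, the next to lowest of the controls. Sums of other lists differed among these pups too. The ventral forebrain sum was lowest in PTU pups 1 and 4 within their group, at 11560 and 19467 against 22317 to 24739 in the others, and highest in control pup 6, at 29330. The medial pallium sum of the PTU group was highest in pup 1, at 13666, and lowest in pup 6, at 10112, with 10747 in pup 4. *Zbtb20*, at 7668 ± 938 (SD, n = 7) in controls, was its most abundant gene. A score that weights each gene alike (the mean of log2 values less each gene's mean) put PTU pup 2 lowest, at -0.20, and pup 4 at 0.07. Within groups its r was 0.61 with *Zic1*, 0.45 with *Zic2*, 0.70 with *Zic4* and 0.02 with *Zic5*. The part of these tissues in the results, that of *Zic5* included, was not tested.

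**Figure D4:**
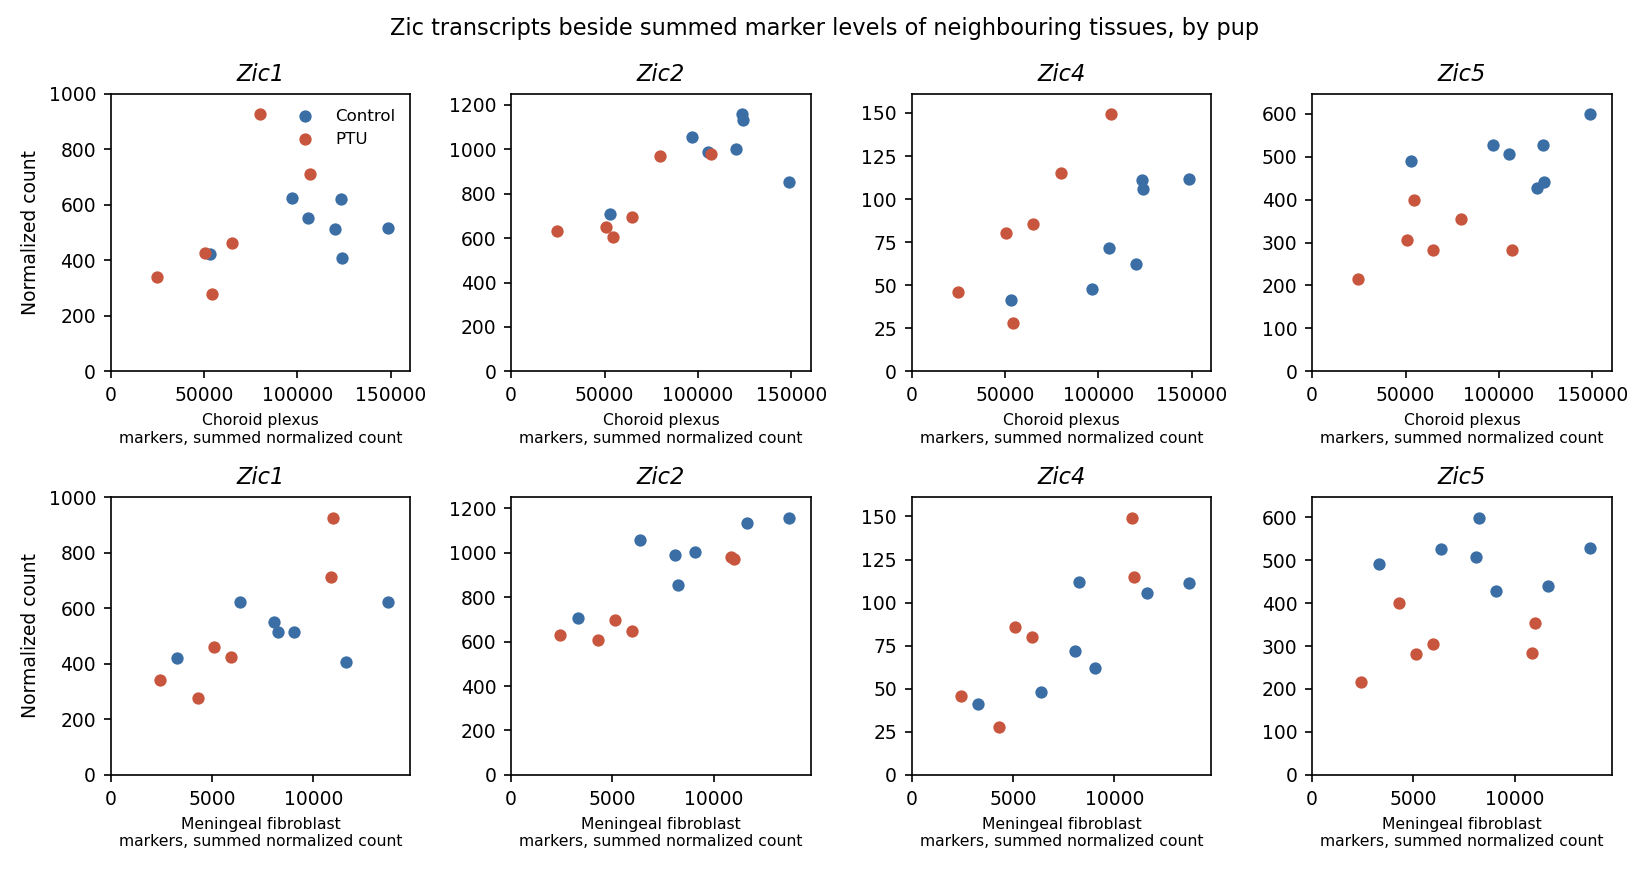
Normalized counts of the 4 Zic transcripts (y axis) beside the summed normalized counts of choroid plexus markers (upper row) and meningeal fibroblast markers (lower row), 1 point per pup, control in blue and PTU exposed in red. The highest *Zic2* value of the PTU group, 980, belongs to the pup with its highest choroid plexus sum, and the PTU pups with the lowest and highest choroid plexus sums have *Zic5* at 216 and 283, with the highest *Zic5* value, 399, at a sum of 54438.

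The radial glia markers were also lower in PTU exposed pups, all 10 of them, and 6 had p under 0.05 before adjustment in limma (8.2% of all rows), with a median log2 difference of -0.33. Their sum ranged from 88524 to 119586 in controls and from 72425 to 96417 in PTU exposed pups. PTU pups 1 and 6 had the lowest sums, 75488 and 72425, beside *Zic5* values of 354 and 216. PTU pup 2, with the highest sum of its group, 96417, had 399. Over all rows tested, the median log2 difference was 0.00376.

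The GLI and GLIS genes encode the closest zinc finger relatives of the Zic proteins, and GLI proteins can bind Zic proteins. Of the 6 genes, all measured, 5 were lower and 1 higher, 0 passed the threshold in limma, and 3 were lower with an unadjusted p under 0.05 (8.2% of all rows). Without PTU pup 2, 1 of the 6 was called, in a fit that called 179 rows in all. *Gli2*, a main activator of hedgehog targets, and *Gli3*, mainly a repressor, had log2 differences of -0.42 and -0.43 (standard errors 0.11 and 0.13, adjusted p = 0.132 and 0.148 in limma). *Glis3*, a related factor of the GLI-similar group, had 1447 ± 187 and 1014 ± 240 normalized counts (SD, n = 7 and 6), a log2 difference of -0.54 (standard error 0.15, adjusted p = 0.136 in limma). *Gli1*, itself a target of the pathway, had a log2 difference of -0.22 (standard error 0.28, adjusted p = 0.724 in limma). The median of the 6 was -0.32, and it was -0.12 with the same total per library and -0.21 without PTU pup 6.

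Upstream in the hedgehog pathway, 9 of 12 genes were measured, of which 6 were lower and 3 higher, with a median log2 difference of -0.046 (0.16 with the same total per library) and 0 calls in limma. The 3 that were lower with an unadjusted p under 0.05 (8.2% of all rows) were the coreceptors *Boc* and *Cdon* (log2 differences -0.36 and -0.24) and the signal transducer *Smo* (-0.27), with adjusted p-values from 0.175 to 0.258 in limma. *Disp1*, which releases the ligand, had a log2 difference of 0.06 (adjusted p = 0.838 in limma). *Ptch1*, the receptor and a target of the pathway, averaged 1081 ± 101 and 1077 ± 42.9 normalized counts (SD, n = 7 and 6). *Shh*, the ligand, and the coreceptor *Gas1* have no row.

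The dorsal midline, the roof plate and the cortical hem are tissue in which Zic genes are active. Of 21 genes listed for these regions 13 were measured, 11 lower and 2 higher, with 0 calls in limma, and 5 were lower with an unadjusted p under 0.05 (8.2% of all rows). *Emx2* and *Lhx2*, which had the smallest p-values of the list in limma, pattern the cortex or restrict the hem. The list therefore does not stand for these regions alone. Quality weights called 2 of the 13 and 40 rows in all, the replicate block 1 and 18, and the fit without PTU pup 2 called 1 and 179. The median log2 difference was -0.48, and it was -0.28 with the same total per library and -0.26 without PTU pup 6. Choroid plexus markers, with a median of -0.78, also averaged lower in the PTU group, and their part in these values was not tested. *Emx2*, which patterns the medial cortex, had 2193 ± 305 and 1463 ± 300 normalized counts (SD, n = 7 and 6), a log2 difference of -0.59 (standard error 0.13, adjusted p = 0.122 in limma). *Lhx2*, which restricts the hem, had a log2 difference of -0.39 (standard error 0.10) and *Bmp6* of -0.40 (standard error 0.13), with adjusted p-values of 0.122 and 0.171 in limma. *Lmx1a*, a roof plate and choroid plexus factor, had 440 ± 149 and 245 ± 134 normalized counts and a log2 difference of -0.89 (standard error 0.31, adjusted p = 0.189 in limma). *Wnt1*, *Wnt3a*, *Gdf7*, *Pax3* and *Pax7*, among the defining genes of the roof plate and dorsal neural tube, have no row.

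Of the reported partners and targets of Zic proteins, 5 of 6 were measured, 4 lower and 1 higher, with a median log2 difference of -0.16 (0.045 with the same total per library). None was called in limma, and 0 had an unadjusted p under 0.05. *Apoe*, whose promoter Zic proteins can bind, had a log2 difference of -0.22 (standard error 0.12, adjusted p = 0.375 in limma), and *Ephb1*, a guidance receptor induced by Zic2 in retinal axons, of -0.13 (standard error 0.10, adjusted p = 0.54). *Mdfi*, which holds Zic proteins in the cytoplasm, and *Tcf7l2*, a Wnt effector that Zic2 can bind, had log2 differences of -0.41 and -0.16 (standard errors 0.35 and 0.21, adjusted p = 0.571 and 0.736 in limma).

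**Figure D5:**
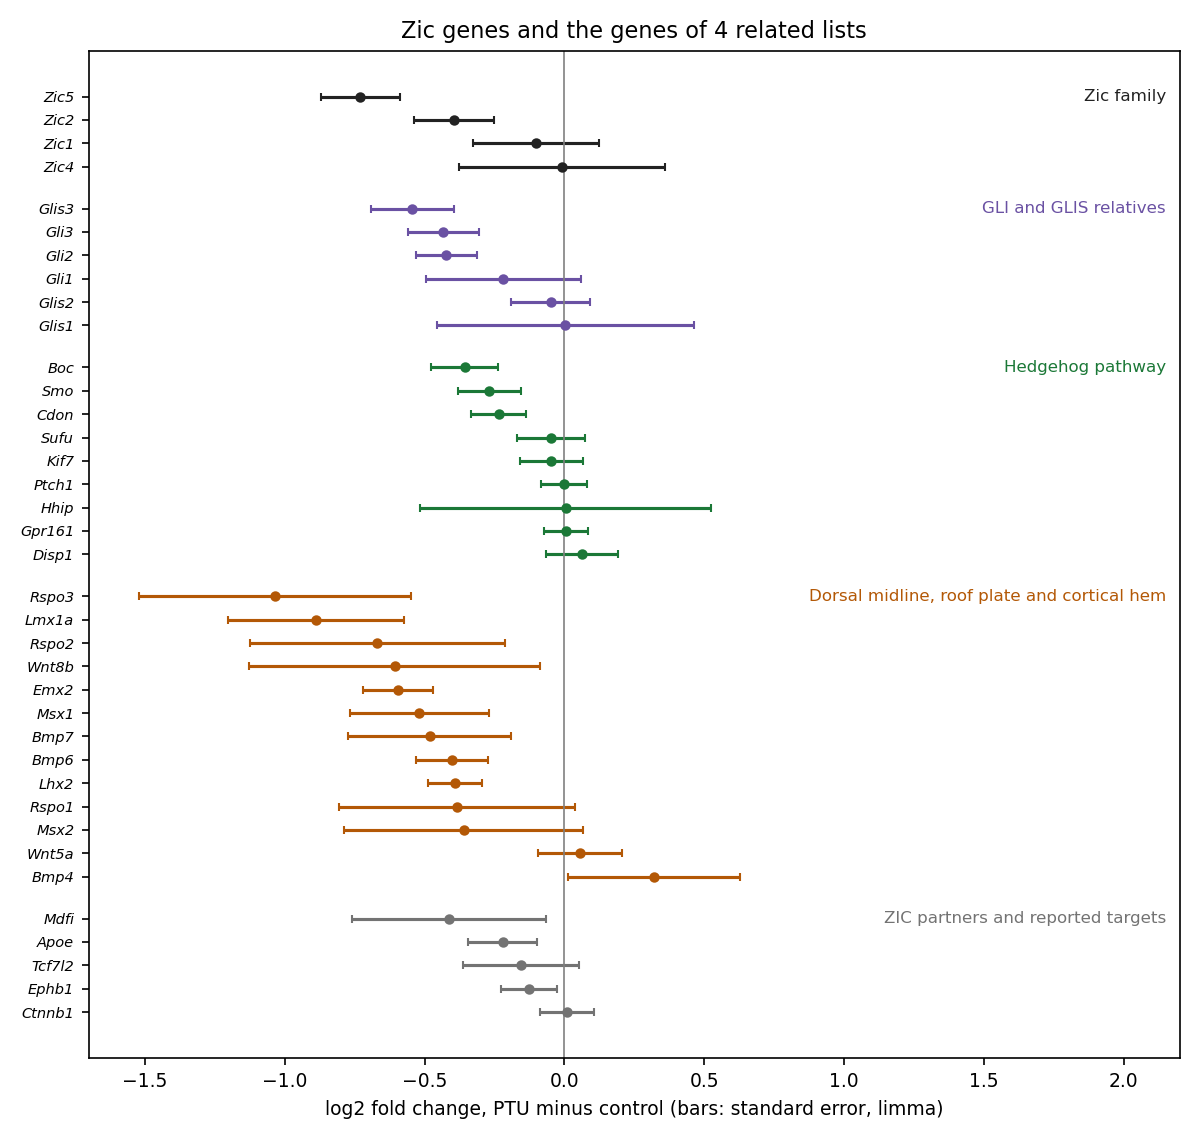
Log2 difference between PTU exposed and control pups (x axis, with the standard error from limma as bars) of the 4 Zic genes and the measured genes of 4 lists of related genes. *Zic5* lies at -0.73, lower than the GLI, GLIS and hedgehog genes shown and above *Lmx1a* (-0.89) and *Rspo3* (-1.03) of the dorsal midline list, and *Zic1* and *Zic4* have bars that include 0.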

How the data were processed

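Total RNA libraries of the VZ were sequenced from 7 control and 6 PTU exposed pups. The authors trimmed reads with Trimmomatic, aligned them to mRatBN7.2 (rn7) with STAR 2.7.8a, assigned reads to transcripts by Partek's E/M counting and scaled libraries by median ratios; the deposited signal is therefore a normalized count and not a raw count. The table also holds columns of the authors' own comparison (p-values, ratios, fold changes), which were not used. Whether strand was used in counting is not given in the sources used here. Between 90.3 and 91.8% of values from 20 to 150 were whole multiples (within 0.1) of a step per library, under the 95% set for recovering reads, so no count model was run, and estimated reads (22.3 to 44.4 M per pup) are approximate. They cover counting error only.

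Rows with a mean of at least 10 (14606 of 14716) were transformed to log2(normalized count + 1), a scale on which fold changes of low transcripts are understated, and compared in limma 3.58.1 (R 4.3.3; empirical Bayes, variance trend, Benjamini-Hochberg over all rows, threshold 0.05). Exact permutation tests used all 1716 regroupings of the pups. The count model used in the study needs raw counts and was not run. Other steps used scipy 1.17.1, pandas 2.3.3, numpy 2.4.6 and matplotlib 3.10.9 under Python 3.11.15. Scripts were tested on simulated data. The members, lists and tests were chosen with earlier results of these data known. Named genes were every Zic row, the 4 rows of smallest p in each list of related genes, and the 5 most alike rows of each member, of which 1 is not reported here; *Ptch1*, *Rspo3*, *Col1a1*, *Col3a1*, *Sox2*, *Ttr*, *Stmn2* and *Dynlrb2* were added after their values were seen. Promoter sequences are from RefSeq (GRCr8), matched by symbol for 3 of the 4 members. Alternatives were pseudocounts of 0.1 and 10, a filter at 100 or none, scaling by TMM, by quantiles or to 1 total per library, summed rows of a gene, quality weights, an untrended variance, a block for replicate number, and leaving out each pup.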

Additional observations from a re-analysis of the deposited data

Results flagged for a closer look

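Each group of pups was checked for a single value far from the others on the log2 scale, for the members, their ratios and the named genes of the related lists. Of 52 such groups, 5 had one, where chance gives about 1 in 20. The log2 ratio of *Zic1* over *Zic2* was -1.47 in control pup 5, and the other controls lay between -0.96 and -0.73. *Glis3* had 591 normalized counts in PTU pup 6 and between 951 and 1241 in the other PTU exposed pups. *Emx2* had 1605 in control pup 7, against 2164 to 2579 in the other controls. *Lmx1a* had 157 in control pup 6, against 370 to 571, in the control with the lowest choroid plexus marker sum. *Tcf7l2* had 1055 in control pup 7, against 417 to 580. No member of the Zic family had such a value in its own normalized counts.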

How the results depend on the processing

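*Zic5* was lower and *Zic2* was lower in PTU exposed pups under all 24 alternatives, with log2 differences from -0.81 to -0.53 and from -0.48 to -0.19. *Zic5* passed the threshold with quality weights (-0.75, adjusted p = 0.0381 in limma) and without PTU pup 2, and *Zic2* under none. With each pup left out in turn, the log2 difference ranged from -0.81 to -0.63 for *Zic5*, from -0.29 to 0.055 for *Zic1* and from -0.21 to 0.26 for *Zic4*, and the number of rows called from 0 to 179 (179 without PTU pup 2, 7 without control pup 6). *Zic1* turned without PTU pup 2, and *Zic4* without control pups 2, 5 or 7 or PTU pups 2 or 6. The *Zic4* difference turned to 0.0047 with a pseudocount of 10, and it was below the filter at a mean of at least 100. With the same total per library, where the median row moves by 0.20, the differences were -0.53 for *Zic5*, -0.19 for *Zic2*, 0.10 for *Zic1* and 0.19 for *Zic4*; relative to that shift they were -0.73, -0.40, -0.11 and -0.02. The 3 most abundant rows held a median of 50.9% of the signal in controls (32.4 to 60.1) and 35.8% in PTU exposed pups (23.9 to 57.0), which bears on that scaling. Quality weights called 40 rows. The replicate number as a block, with control pup 7 on its own level, called 18 rows and turned *Zic4* to 0.089; *Zic5* then had an adjusted p of 0.0542. Pups of 1 number came from different litters, and their deviations correlated by -0.07 to 0.20, over 0.1 in 4 of 6 pairs, and 5 of 12 pups were most alike the pup of their own number; the numbers were not treated as pairs, and whether they share a source is not known. Ratios with a pup left out ranged from 0.18 to 0.39 (*Zic1* over *Zic2*), -0.24 to 0.054 (*Zic1* over *Zic4*), 0.48 to 0.87 (*Zic1* over *Zic5*), -0.60 to -0.26 (*Zic2* over *Zic4*), 0.24 to 0.47 (*Zic2* over *Zic5*) and 0.50 to 1.07 (*Zic4* over *Zic5*). The correlation of *Zic2* and *Zic5* was 0.0046 with TMM factors and 0.62 with the same total, that of *Zic1* and *Zic5* 0.57, that of *Zic4* and *Zic5* 0.26 and that of *Zic1* and *Zic4* 0.72 (permutation, adjusted p = 0.0306) with the same total. The causes were not tested. Depth limits *Zic4* most, at 29.0 estimated reads in its lowest pup.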

Other observations

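Other cell type lists were measured beside the Zic transcripts. Of 10 neuron markers, 8 were higher and 2 lower by log2 difference after PTU exposure, 4 of them higher with an unadjusted p under 0.05 in limma, where 8.11% of all rows were, and *Stmn2*, a neuronal microtubule protein, had a log2 difference of 0.48. Their summed level was 114718 normalized counts in PTU pup 1, the pup with the highest *Zic1*, and at most 94902 in the other PTU exposed pups. PTU pup 4, next in *Zic1* at 712, had the lowest neuron sum of its group, 70266. The pup at 94902, PTU pup 6, had *Zic1* at 342, next to lowest. Of 5 measured ependymal markers, 4 were lower and 1 higher, 3 lower with an unadjusted p under 0.05 (8.2% of all rows), with *Dynlrb2*, a dynein light chain of cilia, at a log2 difference of -1.04 (adjusted p = 0.122 in limma). *Foxj1*, which defines ependymal cells, has no row. Of 5 medial pallium markers 2 were lower and 3 higher, and of 6 ventral forebrain markers 1 was lower and 5 higher, 0 in either list with an unadjusted p under 0.05 in limma.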
